A study of Triticum aestivum and Triticum turgidum subsp. durum with 27 samples.

Results

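The comparison described here is that of severely stressed glumes of bread wheat CS with severely stressed glumes of durum wheat Creso, and it rests on 6 of the 27 arrays of the series, chosen by their labels: 3 of CS under severe stress (SS) and 3 of Creso under SS. The 3 CS and 3 Creso arrays of well watered plants (CTRL) were used to ask which species differences remained, closed or appeared under severe drought. CS is the cultivar Chinese Spring of Triticum aestivum and Creso a cultivar of Triticum durum, so each species is represented by 1 cultivar, and cultivar and species cannot be told apart. The labels give 10 days after anthesis for CS and 7 for Creso, and the study's methods give other days, again with CS the later, so that stage varies with species too. Plants were brought to the same soil water content at each treatment, but the study measured a lower leaf water potential in Creso, and SS was therefore not the same plant water status in both. The study describes the 3 arrays of a condition as biological triplicates. Some values of moderate stress (MS) and of CS_5AL-10, a deletion line of CS without the end of chromosome arm 5AL, are given for reference.

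Glumes are the green bracts that enclose the wheat floret and they photosynthesise while the grain fills. Durum wheat carries the A and B genomes and bread wheat carries the D genome in addition, so most genes have an extra copy in CS that Creso lacks. Plants that lose water accumulate abscisic acid (ABA), which acts through protein phosphatases and kinases on transcription factors and leads to the synthesis of dehydrins and other late embryogenesis abundant (LEA) proteins and of osmolytes such as proline. Growth-related cell wall genes and photosynthesis genes are commonly repressed by drought. Pathogenesis-related proteins, such as chitinases and osmotin-like proteins, are known from attack by fungi and are also induced by osmotic stress and hormones in several plants.

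The Affymetrix Wheat Genome Array gives a fluorescence intensity for each probe set, a group of short oligonucleotides that represents a transcript. Values were analysed as log2(intensity + 16) with each array centred on a common median, so that 1 unit is a doubling and the differences of dim probe sets are understated. A difference is called where the adjusted p in limma is under 0.05 and the difference is at least 2-fold. Of 61179 probe sets, which leaves out the AFFX controls, 34089 were bright enough to be tested. Most of the array was designed from bread wheat sequences, and the part of probe mismatch to durum wheat in any difference was not tested. Intensities of different probe sets are not compared with each other.

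Before the species were compared, the arrays were examined for signs of other tissue. The mean log2 level of 53 light harvesting and photosynthesis probe sets was 11.19, 11.28 and 11.26 on the CS SS arrays and 11.35, 11.42 and 11.52 on the Creso SS arrays, which marks all 6 as green tissue. Transcripts of the endosperm, which belongs to the grain inside the floret, were uneven among CS replicates. The mean log2 level of 31 storage protein probe sets was 9.77, 5.8 and 10.8 on CS SS replicates 1, 2 and 3, against 6.85, 5.75 and 5.46 on the Creso SS arrays. It was 11.45, 11.35 and 11.9 in CS CTRL and 5.98, 5.85 and 5.82 in Creso CTRL. CS SS replicates 1 and 3 thus stood apart from CS SS replicate 2, and the comparison is given with and without them where that matters. In a tissue sample, fewer cells of a type and less RNA per cell cannot be told apart. Over the tested probe sets, the lowest correlation of an array with its own replicates was 0.908 for CS SS and 0.965 for Creso SS, a correlation over probe sets, whose values are not independent.

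Severely stressed CS and Creso glumes differed at 9750 probe sets, 28.6% of those tested. Of these, 4347 (12.8% of the tested) were higher in CS and 5403 (15.8%) were lower in CS. The corresponding CTRL comparison called 10540 (30.9%), of which 5259 (15.4%) were higher and 5281 (15.5%) lower in CS. The arrays of the 2 genotypes did not overlap at SS for 17796 probe sets, or 52.2%. The balance of directions depended on the scaling: 44.6% of the SS calls were higher in CS with centred arrays, 66.8% without centring and 54.9% after quantile normalization, and for CTRL the shares were 49.9%, 64.8% and 54.3%. The median difference of all tested probe sets at SS was -0.34 with centring, -0.01 without it and -0.15 after quantile normalization, and the value of a gene list has to be read against this level.

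Species differences called at both SS and CTRL in the same direction, which are said here to have remained, numbered 6451 of the 9750 called at SS, or 18.9% of the probe sets tested, and 2448 of 6074 by the methods' t-test. Of the 6451, 3610 (10.6%) were higher in CS and 2841 (8.33%) were lower. The share that was higher in CS was 56% with centred arrays and 74.5% without centring. Their median size was 1.93 at SS and 1.98 at CTRL on the log2 scale. The largest differences were mostly on the CS side, since 614 of those that remained were at least 16-fold higher and 119 at least 16-fold lower in CS at SS, and 70 were at least 100-fold higher and 15 at least 100-fold lower. Among the 3610 that were higher in CS, the signal of Creso SS lay at or below the array's median on all 3 arrays for 1932 (53.5%). Among the 2841 that were lower in CS, the signal of CS SS lay there for 480 (16.9%). Over all tested probe sets the corresponding shares were 10% for Creso SS and 6.14% for CS SS. The MS means were not used to form this class, although the MS arrays share its filter and its estimate of the variance. At MS, the CS value was called higher for 3383 of the 3610 (93.7%, against 14.1% of all tested) and lower for 2073 of the 2841 (73.0%, against 12.1% of all tested). The MS comparison called 26.2% of the tested probe sets in all.

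A smaller set of differences changed with the treatment. The species difference at SS minus that at CTRL, tested in the same model, was called for 861 probe sets (2.53%): 410 (1.2%) were more positive for CS at SS and the others (1.32%) more negative. The more positive share of 47.6% was 60.7% without centring, 59.2% after quantile normalization and 59.6% with centring on the tested probe sets. Within these, 314 differences of CTRL plants closed, meaning that they were no longer called at SS, 247 appeared, meaning that they were called at SS and not at CTRL, and 39 were called in opposite directions and had turned over. A further 162 changed in size while they remained, with 75 wider and 87 narrower at SS, and 99 were called at neither treatment. Another 3013 probe sets were called at SS only and 3736 at CTRL only, without a call for the change, so that these are not shown to differ between treatments. The number of called changes depended on single arrays and on the test. It was 532 without CS SS replicate 2, 477 without Creso SS replicate 2, 516 without Creso SS replicate 1, 526 without CS CTRL replicate 2, 547 without CS CTRL replicate 3, and 0 by the methods' t-test after adjustment, which found 1962 at an unadjusted p under 0.05 and 2-fold. In the plot of the differences at SS against those at CTRL, each class occupies its own sector, although a closed difference can exceed 2-fold at SS where its adjusted p was too high.

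**Figure D1:**
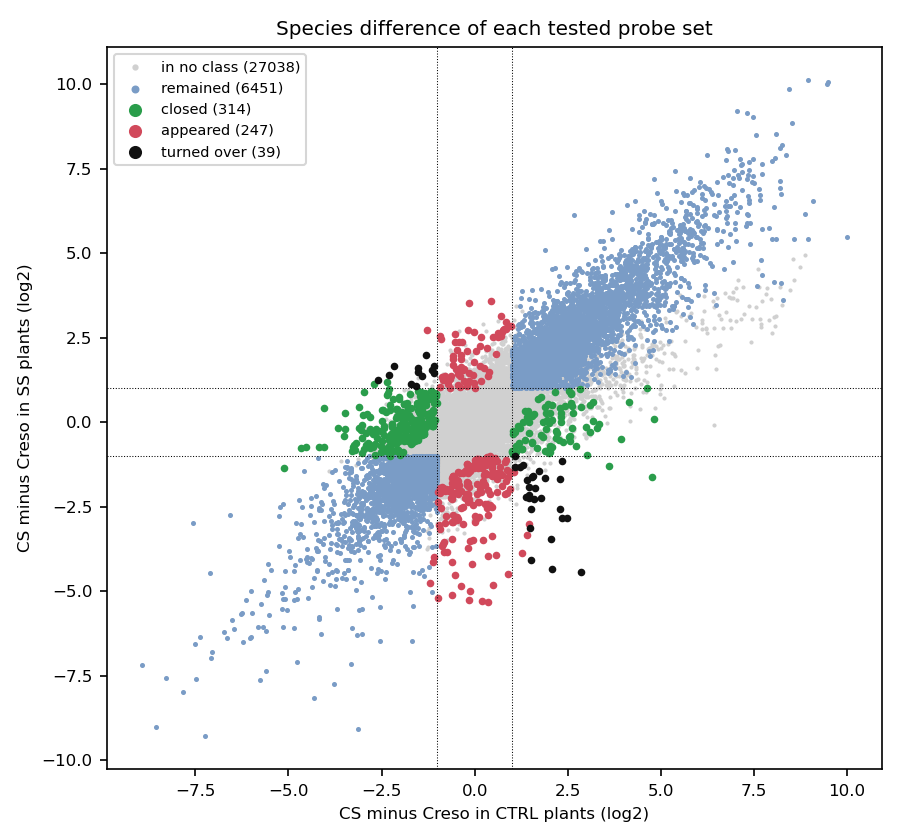
Species difference of each of 34089 tested probe sets, CS minus Creso on the log2 scale, in SS plants (vertical axis) against CTRL plants (horizontal axis). Dotted lines mark 2-fold, colours mark the 6451 differences that remained, the 314 that closed, the 247 that appeared and the 39 that turned over, and most coloured points lie along the diagonal.

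Among the probe sets with a name, which are a small part of those that remained, the widest difference with CS higher was that of a major intrinsic protein, a member of the family of water and solute channels. It had an intensity of 17056, 14988 and 19143 in CS SS glumes, against 6.08, 13.3 and 5.32 in Creso SS glumes. In CTRL plants it had 5142, 4787 and 4800 in CS and 9.44, 16.9 and 5.82 in Creso. Creso was thus near the floor of the array in both treatments, and the CS value at SS was at least 168-fold higher (fitted log2 difference 9.14 ± 0.17 SE, adjusted p = 1.2e-21). Here and below, "at least" sets the brighter group's mean against the array median wherever all 3 arrays of the dimmer group lie at or under it. The difference was wider at SS than at CTRL by 1.84 ± 0.24 (adjusted p = 0.00021).

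A tonoplast intrinsic protein, a channel of the vacuolar membrane, read 7033, 8796 and 7123 in CS SS, against 33.6, 37.7 and 44.8 in Creso SS, at least 75.2-fold apart. On the CS_5AL-10 SS arrays the same probe set read 21.3, 64.8 and 72.2, close to Creso and far from CS, whereas the major intrinsic protein above read 25219, 23749 and 20459 there. Of the 10 aquaporin probe sets, 5 were called higher in CS at SS and the same number at CTRL. The shares of all tested probe sets were 12.8% and 15.4%. In this list 0 were called lower in limma, by the methods' t-test or at an unadjusted p under 0.05 and 2-fold. The list median was 2.62 at SS against -0.34 for all tested probe sets. The 5 called belong to 3 sequence clusters, so that they need not be 5 separate genes. The other 5 lay between -0.71 and 0.17.

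The match of maize In2-1, a safener-induced relative of the glutathione transferases, had 11125, 6642 and 8529 in CS SS and 63.7, 40.6 and 31.9 in Creso SS, a difference of at least 84.8-fold. A universal stress protein was at least 66.4-fold higher in CS, with 8840, 4896 and 6980 against 31.4, 29.4 and 39.3. Neither gene's species difference was called as changed between treatments (adjusted p = 0.077 and 0.17). A glutathione S-transferase, an enzyme that couples glutathione to reactive compounds, read 1658, 1904 and 1458 in CS SS, against 7.3, 12.1 and 2.09 in Creso SS. Its CTRL level in CS was higher, at 4972, 6575 and 4035. Creso lay at or below the array's median in both treatments, so CS was at least 16.6-fold higher at SS and at least 48.7-fold at CTRL. The fitted log2 difference was 5.88 ± 0.36 at SS and 6.02 ± 0.36 at CTRL, and both values depend on the dim Creso signal.

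Prx1, listed among the antioxidant enzymes, widened its difference. It had 2487, 2563 and 2726 in CS SS and 11.4, 10.2 and 3.5 in Creso SS, against 1382, 1369 and 1135 in CS CTRL and 29.8, 89.4 and 41.5 in Creso CTRL. The change was 2.35 ± 0.33 (adjusted p = 0.00036). A DnaJ co-chaperone, which helps heat shock protein 70 to bind its clients, had 3611, 2595 and 5233 in CS SS and 22.8, 24.5 and 32.2 in Creso SS. It was at least 36.3-fold higher in CS at SS, and its change was 3.45 ± 0.84 (adjusted p = 0.024). That change lost its call when any of 7 single arrays was left out, with adjusted p up to 0.076. It was also lost with an offset of 1 (adjusted p = 0.22) and with CS SS replicate 2 alone (change 2.95). Dihydroneopterin aldolase, an enzyme of folate synthesis, and ribosomal protein L32 were at least 13.7-fold and at least 9.38-fold higher in CS SS. Both lay at or below the array's median in Creso at either treatment, and their highest Creso SS values were 3.01 and 2.36.

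The 32 probe sets that the study mapped to the D genome by PCR were all higher in CS at SS and at CTRL, with a median difference of 5.65 at SS and 5.72 at CTRL. The study chose them on these samples for a low signal in Creso, so that their direction is not independent evidence. The widest difference among them, of a probe set with no gene name in the sources used here, was read as 33718, 50727 and 35797 in CS SS and as 22.3, 18.6 and 2.65 in Creso SS. Some other probe sets stood on the same side and are given as examples. At SS more transporters were called lower in CS than higher (14 and 4 of 41, and 8 and 5 without centring). The same held for cell wall and cytoskeleton probe sets (13 and 3 of 50, and 12 and 4 without centring). Of all tested probe sets, 15.8% were called lower and 12.8% higher. A tubulin probe set (TUB), for a subunit of the microtubules, had 1683, 4428 and 3658 in CS SS against 58.2, 45.6 and 76.6 in Creso SS, while a potassium channel (KCO1) had 1419, 1662 and 1739 against 18.2, 54 and 61.2. A lysine and histidine transporter read 1042, 1053 and 1537 in CS SS and 30.7, 51.5 and 46.3 in Creso SS, and its difference was narrower than at CTRL by 2.15 ± 0.53, on the log2 scale (change -2.15, adjusted p = 0.026). That call was lost without any of 7 single arrays (adjusted p up to 0.084). It was also lost with an offset of 1 (adjusted p = 0.053) and with CS SS replicate 2 alone (change -2.33).

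Among the probe sets with a name that stayed lower in CS, chalcone synthase had the widest difference. Chalcone synthase, which catalyses the first committed step of flavonoid synthesis, had 5.5, 1.77 and 4.13 in CS SS, against 14158, 9549 and 7090 in Creso SS. It had 1.3, 1.95 and 9.32 in CS CTRL and 3400, 2712 and 1745 in Creso CTRL. CS showed no signal above the array's median in either treatment, and Creso SS was at least 122-fold higher than CS SS (log2 difference -9.29 ± 0.38, adjusted p = 1.4e-15). CS_5AL-10 at SS was as dim as CS, at 8.98, 1.88 and 6.59. The difference was wider at SS than at CTRL (change -2.05 ± 0.53, adjusted p = 0.035). That call was lost without any of 8 single arrays (adjusted p = 0.052 to 0.11) and with CS SS replicate 2 alone (change -2.21). It was also lost with an offset of 1 (adjusted p = 0.33) and without the filter (adjusted p = 0.065). An O-methyltransferase that matches an Arabidopsis flavonol methyltransferase followed the same order, with 12.7, 3.04 and 8.77 in CS SS and 1143, 819 and 670 in Creso SS, at least 10.8-fold apart.

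A proline-rich protein stayed lower in CS, with 187, 274 and 337 in CS SS against 44099, 41367 and 38830 in Creso SS (-7.56 ± 0.24, adjusted p = 3.1e-17). A leucine-rich repeat extensin, a structural protein of the cell wall, had 58.3, 45.1 and 6.76 in CS SS and 1490, 1603 and 2759 in Creso SS. An arabinogalactan protein, a glycoprotein of the cell surface, had 203, 306 and 250 against 4534, 4139 and 5259. The changes of these 3 genes between treatments were not called (adjusted p = 0.28, 0.82 and 0.11). A ribonuclease of the T2 family, which degrades RNA, had 8.92, 18.6 and 5.95 in CS SS and 4120, 3359 and 2115 in Creso SS. At CTRL it had 19.5, 34.6 and 23.5 in CS and 23506, 15769 and 13206 in Creso, and the change of 1.74 ± 0.66 was not called (adjusted p = 0.16).

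Among defence proteins, most of the called changes with treatment ran towards Creso. Of the 43 tested probe sets of this list, 24 were called lower in CS at SS and 5 higher. The shares of all tested probe sets were 15.8% and 12.8%. At CTRL 18 of the list were called lower and 10 higher, against shares of 15.5% and 15.4%. Its median difference was -1.62 at SS and -0.61 at CTRL, beside -0.34 and -0.28 for all tested probe sets and -0.43 and -0.42 for the 1090 tested probe sets with a name. The change was called as more negative for 15 of the 43 and as more positive for 3, beside 1.32% and 1.2% of all tested probe sets, and for 86 and 92 of the 1090 with a name. Most names come from a table of probe sets that the study picked for a response in these samples, so that the counts of the lists are not independent of drought. By the methods' t-test no change was called for any list after adjustment. The 29 members called at SS came from 21 sequence clusters, and several probe sets can represent the same transcript. The 15 include chitinases, osmotin-like proteins, a beta-1,3-glucanase and PR-1-type proteins. The count of 15 was 11 to 16 without single arrays, and 11 without Creso SS replicate 1 or 2 or CS SS replicate 2. It was 12 with an offset of 1 and 16 without centring. With CS SS replicate 2 alone, the array with little storage protein signal, 25 were called lower in CS at SS and 14 changes were called as more negative. The count of 3 more positive changes was 0 with the replicate block, with CS SS replicate 2 alone, without any single SS array except Creso SS replicate 3, and without CS CTRL replicate 2 or Creso CTRL replicate 1, and it was 1 without Creso CTRL replicate 2. The median stayed below 0 without centring (-1.29) and after quantile normalization (-1.22).

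An osmotin-like protein, of the thaumatin-like family, had 101, 115 and 419 in CS SS, against 10540, 6533 and 2857 in Creso SS. In CTRL plants it had 344, 475 and 839 in CS and 426, 332 and 374 in Creso, so that the species overlapped. Its difference was -5.28 ± 0.55 at SS (adjusted p = 3.3e-08) and 0.2 ± 0.55 at CTRL (adjusted p = 0.79), a change of -5.48 ± 0.78 (adjusted p = 0.00038). Other defence genes that appeared at SS had the same form. An allergen V5/Tpx-1-related protein, a relative of PR-1, had 175, 236 and 277 in CS SS and 3925, 3348 and 2043 in Creso SS. Its CTRL values were 553, 700 and 662 in CS and 461, 338 and 464 in Creso.

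A pathogenesis-related protein had 53.1, 21.5 and 62.2 in CS SS and 1085, 551 and 560 in Creso SS, at least 8.79-fold apart. A chitinase, an enzyme that cuts the chitin of fungal walls, had 38.6, 82.8 and 97.4 against 1346, 1289 and 928. PR5 had 202, 140 and 409 in CS SS and 2498, 1785 and 828 in Creso SS. The species did not overlap at SS for any of these 3 genes, which also held for 52.2% of all tested probe sets. The change of PR5, -4.48 ± 1.06 (adjusted p = 0.021), lost its call without Creso SS replicate 1 or 2, CS CTRL replicate 3 or CS SS replicate 2 (adjusted p up to 0.064). With an offset of 1 it was not called either (adjusted p = 0.076).

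Further defence genes were already lower in CS at CTRL and became more so at SS. A basic endochitinase had 110, 38.9 and 107 in CS SS and 12853, 6899 and 3408 in Creso SS, against 74.4, 157 and 146 in CS CTRL and 619, 697 and 636 in Creso CTRL. Its difference was -6.48 ± 0.42 at SS and -2.53 ± 0.42 at CTRL (change -3.95 ± 0.6, adjusted p = 0.00072). A second osmotin-like probe set and a second chitinase also widened, by -2.24 ± 0.46 (adjusted p = 0.0085) and -2.79 ± 0.55 (adjusted p = 0.0058). This second chitinase and the chitinase that appeared at SS belong to the same sequence cluster, so that they need not be separate genes. In CS_5AL-10 SS glumes the basic endochitinase read 52, 40.1 and 31, in the range of CS rather than Creso. Probe sets whose names end in _x_at or _s_at can bind more than 1 family member, and in such families the reading of a single gene is uncertain.

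A class IV chitinase turned over. It had 99.7, 140 and 185 in CS SS, against 3068, 2352 and 1165 in Creso SS, whereas CS CTRL had 627, 876 and 1210 and Creso CTRL 310, 359 and 134. The difference was -4.06 ± 0.4 at SS and 1.51 ± 0.4 at CTRL, and the change was -5.57 ± 0.56 (adjusted p = 1.5e-05). A glucosyltransferase had 78.5, 10.9 and 88.8 in CS SS and 1598, 1115 and 593 in Creso SS, with the opposite order at CTRL (486, 429 and 899 in CS, 87.8, 88 and 137 in Creso). A probe set named secretory protein read 497, 601 and 798 in CS SS and 4166, 3290 and 1948 in Creso SS, against 1278, 1386 and 1474 in CS CTRL and 383, 552 and 302 in Creso CTRL. In these 3 genes every CS SS array lay below the CS CTRL arrays and every Creso SS array lay above the Creso CTRL arrays.

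**Figure D2:**
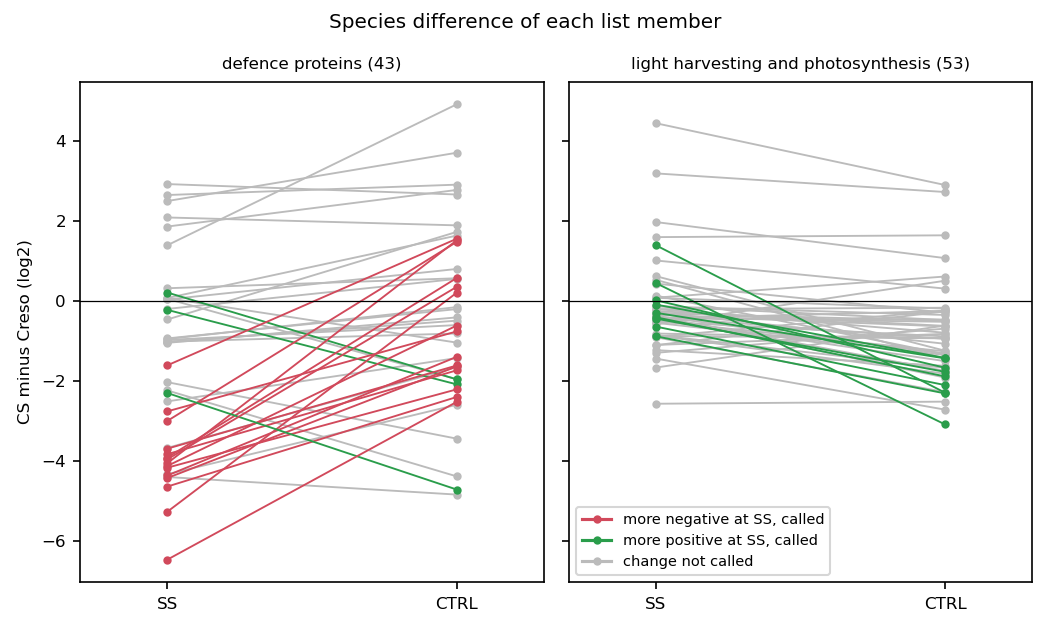
Species difference (CS minus Creso, log2) of each of the 43 tested defence proteins (left) and 53 tested light harvesting and photosynthesis probe sets (right), each line joining the value at SS to that at CTRL. Red lines are the 15 defence members whose difference was called as more negative at SS, and green lines are the members called as more positive at SS, 3 on the left and 9 on the right.

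Over all 247 differences that appeared, 182 were lower in CS at SS and 65 higher. In 122 of the 182 the Creso mean at SS was at least 2-fold above that at CTRL, and in 47 the CS mean was at least 2-fold below. Of the 65 that were higher in CS, 42 had a Creso mean at least 2-fold lower at SS than at CTRL and 22 a CS mean at least 2-fold higher. These counts describe the class and were not tested. At MS, 93 of the 182 (51.1%) were called lower in CS and 34 of the 65 (52.3%) called higher, beside 12.1% and 14.1% of all tested probe sets. The balance of directions among those that appeared depended on the scaling, with 158 of 308 lower in CS without centring and 158 of 296 after quantile normalization.

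Outside the defence list, differences appeared for a protein kinase, a gibberellin enzyme, an invertase and a nitrate transporter. The protein kinase had 72.7, 106 and 209 in CS SS, against 6238, 4153 and 3097 in Creso SS, with 1185, 741 and 1559 in CS CTRL and 554, 973 and 709 in Creso CTRL. Its change was -5.69 ± 0.69 (adjusted p = 8.1e-05). ent-Kaurene oxidase, which acts early in gibberellin synthesis, had 2.28, 2.2 and 4.11 in CS SS and 448, 322 and 226 in Creso SS, at least 4.15-fold apart. In CTRL plants it had 138, 17.7 and 196 in CS and 19.2, 37.5 and 39.3 in Creso, so that every CS array was lower at SS than at CTRL and every Creso array higher.

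A beta-fructosidase, an invertase that splits sucrose, had 35.1, 7.18 and 28.1 in CS SS and 461, 458 and 320 in Creso SS, while all 6 CTRL arrays were between 19.1 and 59.2. Its change of -3.01 was not called with an offset of 1 (adjusted p = 0.1). The nitrate transporter had 424, 226 and 272 in CS SS against 1879, 2202 and 1734 in Creso SS. It was higher at SS than at CTRL in both species, more so in Creso (change -2.39 ± 0.45, adjusted p = 0.0041). On the CS side, a glycosyltransferase that matches Arabidopsis UGT72B1, an enzyme that adds glucose to foreign phenols, had 3267, 930 and 1659 in CS SS and 83.5, 140 and 95.3 in Creso SS, against 117, 157 and 168 in CS CTRL and 81.1, 122 and 239 in Creso CTRL. A protein phosphatase 2C, of a family that includes repressors of ABA signalling, had 570, 500 and 399 in CS SS and 128, 80 and 162 in Creso SS (change 2.06 ± 0.43, adjusted p = 0.0092), and its SS difference was not called by the methods' t-test (adjusted p = 0.054).

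**Figure D3:**
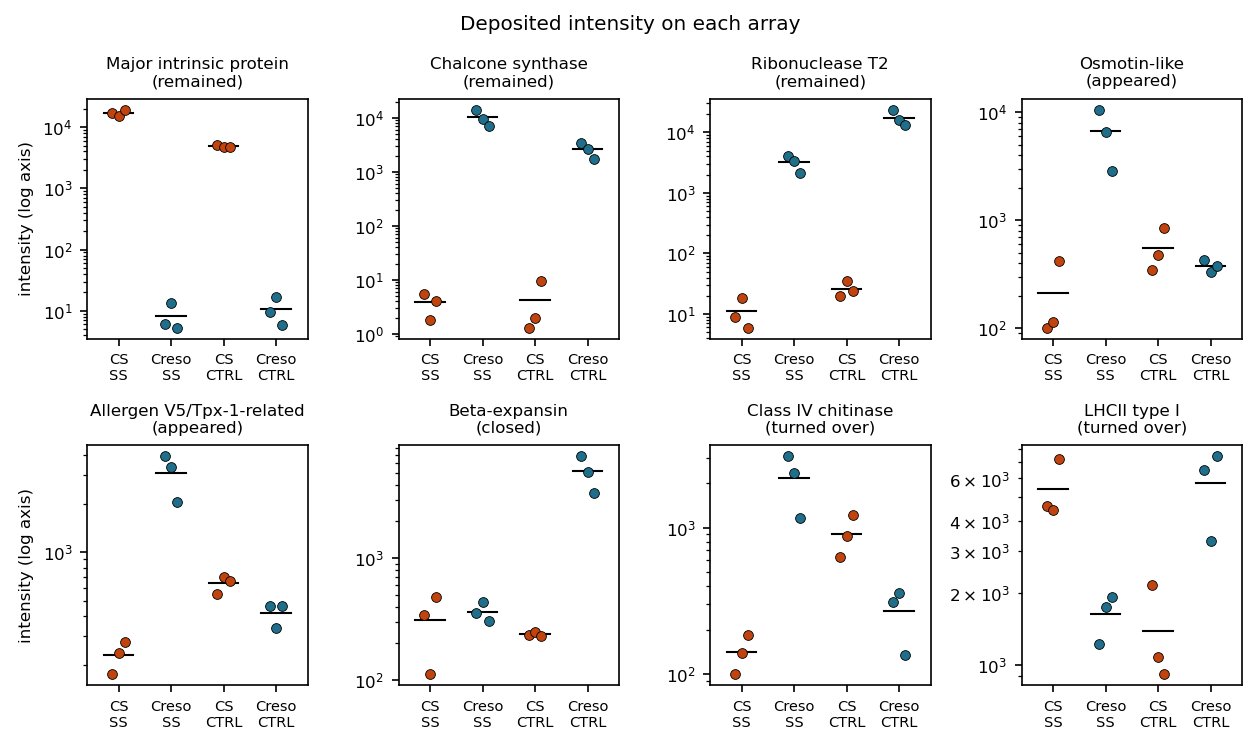
Deposited intensity (log axis) of 8 probe sets on each CS SS, Creso SS, CS CTRL and Creso CTRL array, with points for single arrays and bars for the mean of 3. Differences of the first 3 panels remained, those of the osmotin-like and allergen V5 panels appeared, the beta-expansin difference closed, and the class IV chitinase and LHCII panels show opposite orders at SS and CTRL.

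Expansins, proteins that loosen the cell wall during growth, closed their difference. A beta-expansin had 340, 112 and 478 in CS SS and 353, 436 and 304 in Creso SS, against 234, 248 and 231 in CS CTRL and 6851, 5120 and 3456 in Creso CTRL. The species overlapped at SS (-0.74 ± 0.42, adjusted p = 0.15) and were wide apart at CTRL (-4.54 ± 0.42, adjusted p = 5.1e-09). With CS SS replicate 2 alone the SS difference was -1.9 and was called, and it was also called without CS SS replicate 3, at -1.17. An expansin of another probe set family behaved alike, with 366, 204 and 575 in CS SS, 508, 422 and 478 in Creso SS, 304, 281 and 280 in CS CTRL and 5029, 6569 and 3080 in Creso CTRL. Its SS difference was called with the storage protein signal as a covariate, at -1.35, and its change was not called with CS SS replicate 2 alone (adjusted p = 0.13). Of the 50 tested cell wall and cytoskeleton probe sets, 13 were called lower and 3 higher in CS at SS, beside 15.8% and 12.8% of all tested probe sets, and 17 lower and 4 higher at CTRL, beside 15.5% and 15.4%. The change was called as more positive for 5 and more negative for 1, beside 1.2% and 1.32% of all tested probe sets. Among the 1090 with a name it was called as more positive for 92 and more negative for 86.

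The called changes of photosynthesis genes all ran towards CS. At SS, 6 of 53 probe sets were called lower in CS and 6 higher, beside 15.8% and 12.8% of all tested. The median was -0.39, which is near that of all tested probe sets (-0.34). At CTRL, 24 were called lower and 4 higher, beside 15.5% and 15.4%, with a median of -0.94. The change was called as more positive for 9 of the 53, beside 1.2% of all tested probe sets and 92 of the 1090 with a name. It was called as more negative for 0 in limma, also at an unadjusted p under 0.05 and 2-fold. The methods' t-test called 0 changes of this list in either direction, so that it gives no direction. The count of 9 was 5 when Creso SS replicate 2, CS CTRL replicate 2, CS CTRL replicate 3 or CS SS replicate 2 was left out. The count of 6 called lower at SS was 2 without centring and 3 after quantile normalization. By array, the mean log2 level of the list was 10.56, 10.14 and 10.05 in CS CTRL and 11.23, 10.9 and 11.28 in Creso CTRL. At SS, as given above, the CS arrays reached 11.28 and the Creso arrays began at 11.35.

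An LHCII type I protein, of the main antenna of photosystem II, had 2638, 2546 and 3908 in CS SS and 1316, 1851 and 2158 in Creso SS, against 1172, 536 and 602 in CS CTRL and 7664, 3323 and 5940 in Creso CTRL. Its difference at SS was not called (0.44 ± 0.39, adjusted p = 0.37), that at CTRL was -3.1 ± 0.39 (adjusted p = 6.9e-07). A related probe set turned over, with 4609, 4448 and 7238 in CS SS against 1223, 1752 and 1922 in Creso SS, and 2167, 1076 and 917 in CS CTRL against 6489, 3304 and 7424 in Creso CTRL, though with CS SS replicate 2 alone its SS difference was not called (1.13, adjusted p = 0.12). Other members of the family kept their order. A further chlorophyll a/b-binding protein (LHCB2:4) had 1948, 1067 and 1468 in CS SS and 36.8, 72 and 17.8 in Creso SS, with a difference of 4.44 ± 0.52 at SS and 2.89 ± 0.52 at CTRL. An early light-induced protein, a relative of the antenna proteins that is made under light stress, had 3038, 1990 and 2788 in CS SS and 390, 647 and 527 in Creso SS.

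Differences of the opposite sign closed too. A large subunit of glucose-1-phosphate adenylyltransferase, which makes the sugar donor for starch, had 755, 26.7 and 374 in CS SS and 659, 596 and 452 in Creso SS, against 1406, 1173 and 1104 in CS CTRL and 34.5, 22.7 and 12.7 in Creso CTRL. CS SS replicate 2, at 26.7, is the array with little storage protein signal, and with it alone the SS difference was -4.09 and was called. Non-symbiotic hemoglobin 1, which scavenges nitric oxide, had 259, 749 and 1728 in CS SS and 306, 222 and 280 in Creso SS, against 1992, 1844 and 1597 in CS CTRL and 24.8, 77.7 and 47.3 in Creso CTRL. Its SS difference of 1.01 was not called (adjusted p = 0.063), but it was called without CS SS replicate 1 (1.72), without centring (1.34) and with an offset of 64 (1.02). Of all 314 differences that closed, 230 were lower in CS at CTRL and 84 higher. Of the 230, 96 had a CS mean at least 2-fold higher at SS than at CTRL and 96 a Creso mean at least 2-fold lower. Of the 84, 43 had a CS mean at least 2-fold lower at SS and 41 a Creso mean at least 2-fold higher. Among all 34089 tested, the CS mean was at least 2-fold higher at SS for 1812 and lower for 2062. The Creso mean was higher for 2238 and lower for 1446. A closed difference requires a called change, so that the counts describe the class and were not tested.

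The counts of the further lists at SS are to be read against the same 15.8% lower and 12.8% higher in CS among all tested probe sets. Those at CTRL are to be read against 15.5% lower and 15.4% higher. Of 25 tested probe sets for carotenoid and ABA synthesis, 4 were called lower in CS at SS and 1 higher, and 10 were called lower at CTRL. Without centring 2 were lower and 2 higher at SS and 7 lower at CTRL, and the methods' t-test called 4 lower at SS and 2 at CTRL. No change of this list was called in limma, where 3 passed an unadjusted p under 0.05 and 2-fold. Phytoene synthase, the entry to the carotenoids from which ABA is made, had 1456, 1114 and 1223 in CS SS and 3878, 3562 and 3573 in Creso SS. A 9-cis-epoxycarotenoid dioxygenase (NCED), which cleaves a carotenoid in the limiting step of ABA synthesis, had 4669, 4198 and 4419 in CS SS and 9778, 8873 and 10673 in Creso SS. Its CTRL values were 690, 245 and 656 in CS and 1597, 1378 and 2994 in Creso. Both species were therefore higher at SS and CS stayed lower (-1.46 ± 0.32 at SS and -2.17 ± 0.32 at CTRL, adjusted p of the change 0.46).

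Among proline genes, delta-pyrroline-5-carboxylate synthase, the first enzyme of proline synthesis from glutamate, had 24979, 10073 and 8045 in CS SS, against 34855, 37042 and 35345 in Creso SS (-1.82 ± 0.34), a difference that was not called by the methods' t-test (adjusted p = 0.13). A pyrroline-2-carboxylate reductase had 1694, 913 and 1136 against 4800, 4338 and 4179. Ornithine aminotransferase, of the route from ornithine, was lower in CS by a smaller margin, with 3796, 2246 and 2009 in CS SS and 4996, 5110 and 3900 in Creso SS, and it was not called by the methods' t-test (adjusted p = 0.083) and fell under 2-fold without centring (-0.84) and after quantile normalization (-0.74). Ornithine cyclodeaminase, which turns ornithine into proline directly in bacteria, had the opposite order, with 3726, 1974 and 2986 in CS SS and 501, 573 and 511 in Creso SS. Its log2 difference was 2.05 ± 0.23 at both treatments. Among 12 tested proline probe sets, 4 were called lower and 1 higher in CS at SS (2 and 1 without centring), and no change was called in limma, where 1 passed an unadjusted p under 0.05 and 2-fold.

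Dehydrins and LEA proteins were split. Of 25 tested, 9 were called lower and 3 higher in CS at SS (6 and 5 without centring), with a median of -0.43, close to all tested probe sets. A dehydrin that matches RAB18, an ABA-induced protective protein, had 3767, 450 and 1685 in CS SS and 9111, 8752 and 5866 in Creso SS, against 134, 290 and 69.6 in CS CTRL and 313, 503 and 587 in Creso CTRL. Its SS difference was not called by the methods' t-test (adjusted p = 0.15). RD22, a dehydration-responsive protein, had 1493, 983 and 870 in CS SS and 4294, 4099 and 6742 in Creso SS. A group 1 LEA protein was instead higher in CS, with 469, 723 and 992 against 21.5, 2.71 and 39.9, at least 7.03-fold. Of 12 tested heat shock proteins and chaperones, 5 were called higher and 2 lower in CS at SS, with a median of 0.74. A small heat shock protein had 803, 1739 and 1833 in CS SS and 7.71, 39.5 and 8.87 in Creso SS, at least 13.7-fold apart. The widening of its difference from CTRL (2.11 ± 0.53, adjusted p = 0.029) lost its call without any of 8 single arrays (adjusted p up to 0.086). It was also lost with an offset of 64 (adjusted p = 0.056) and with only the conditions compared (adjusted p = 0.081).

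Signalling genes showed both a narrowing and constant differences. The kinase CIPK10, of a family that is activated by calcium sensors, had 2545, 1212 and 2027 in CS SS and 4580, 3124 and 4216 in Creso SS, against 308, 228 and 232 in CS CTRL and 3230, 2605 and 3345 in Creso CTRL. CS was lower at both treatments, by -1.41 ± 0.38 at SS and -3.75 ± 0.38 at CTRL, and the narrowing (2.34 ± 0.54, adjusted p = 0.019) lost its call without Creso SS replicate 2 or CS CTRL replicate 2 (adjusted p up to 0.062) and with CS SS replicate 2 alone (adjusted p = 0.17). Its SS difference was not called by the methods' t-test (adjusted p = 0.073). CIPK9 was lower in CS by -1.09 ± 0.18 at SS and -1.0 ± 0.18 at CTRL, a difference that fell under 2-fold without centring (-0.76) or after quantile normalization (-0.62) and also without CS SS replicate 1 (-0.98). Of 14 tested ABA signalling phosphatases and kinases, 5 were called higher and 4 lower in CS at SS (7 and 2 without centring).

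Of 50 tested transcription factors and zinc finger proteins, 5 were called higher and 11 lower in CS at SS, against 8 and 8 without centring and 7 and 7 after quantile normalization. A B-box zinc finger protein had 15468, 12262 and 13442 in CS SS and 1598, 1649 and 1837 in Creso SS, and its difference widened from CTRL by 1.26 ± 0.26 (adjusted p = 0.0074), a call that was lost with CS SS replicate 2 alone (adjusted p = 0.079). A DREB factor of subfamily A-6, from a family that binds dehydration-responsive promoter elements, had 2648, 3453 and 4084 in CS SS and 14277, 16227 and 15486 in Creso SS. Its difference of -2.52 ± 0.27 at SS was close to that at CTRL, -2.62 ± 0.27.

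Lipid transfer proteins are small proteins that carry lipids to the cuticle and also occur among the PR proteins. Of 16 tested, 10 were called lower in CS and 0 higher in limma, also at an unadjusted p under 0.05 and 2-fold, with a median of -1.9, whereas at CTRL 7 were lower and 5 higher. Without centring 9 were called lower and 1 higher at SS, and 1 was also called higher with an offset of 1 and with the storage protein signal as a covariate. The median at SS stayed below 0 without centring (-1.57) and after quantile normalization (-1.47). An LTP4 probe set had 47.8, 316 and 42.8 in CS SS and 20337, 10800 and 7555 in Creso SS, a difference of -7.11 ± 0.57. A second LTP4 probe set turned over, with 10364, 3861 and 6874 in CS SS and 22896, 24819 and 21959 in Creso SS, against 7641, 7816 and 6960 in CS CTRL and 2404, 2584 and 1941 in Creso CTRL, though its SS difference was not called by the methods' t-test (adjusted p = 0.083). Another probe set, of the wider family, turned over at low signal, with 29.1, 2.69 and 4.7 in CS SS against 244, 248 and 72.1 in Creso SS. A nudix hydrolase, whose family cleaves nucleoside diphosphate derivatives, turned over in the other direction, with 3376, 3202 and 4589 in CS SS against 728, 1309 and 1015 in Creso SS (1.55 ± 0.33, and -1.16 ± 0.33 at CTRL).

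Sugar and starch genes were called lower in CS for 11 of 29 and higher for 0 at SS in limma, also at an unadjusted p under 0.05 and 2-fold. The 11 were 7 without CS SS replicate 2, 5 after quantile normalization and 2 by the methods' t-test. Fructan 6-exohydrolase (6-FEH), which releases fructose from stored fructan, had 591, 388 and 465 in CS SS and 2389, 2233 and 2445 in Creso SS (-2.6 ± 0.27). Without centring the list had 6 called lower and 2 higher. Transporters had 14 of 41 called lower and 4 higher at SS, against 5 lower and 11 higher at CTRL. Their change was called as more negative for 7 of the 41, beside 1.32% of all tested probe sets and 86 of the 1090 with a name. Without centring 8 transporters were called lower and 5 higher at SS. Antioxidant enzymes (14 of 47 lower, 5 higher), ribosomal proteins (1 of 25 lower, 3 higher), phenylpropanoid and flavonoid genes (6 of 12 lower, 2 higher) and hormone synthesis genes (4 of 13 lower, 3 higher) held calls in both directions at SS. For the antioxidant enzymes the counts without centring were 7 lower and 6 higher.

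**Figure D4:**
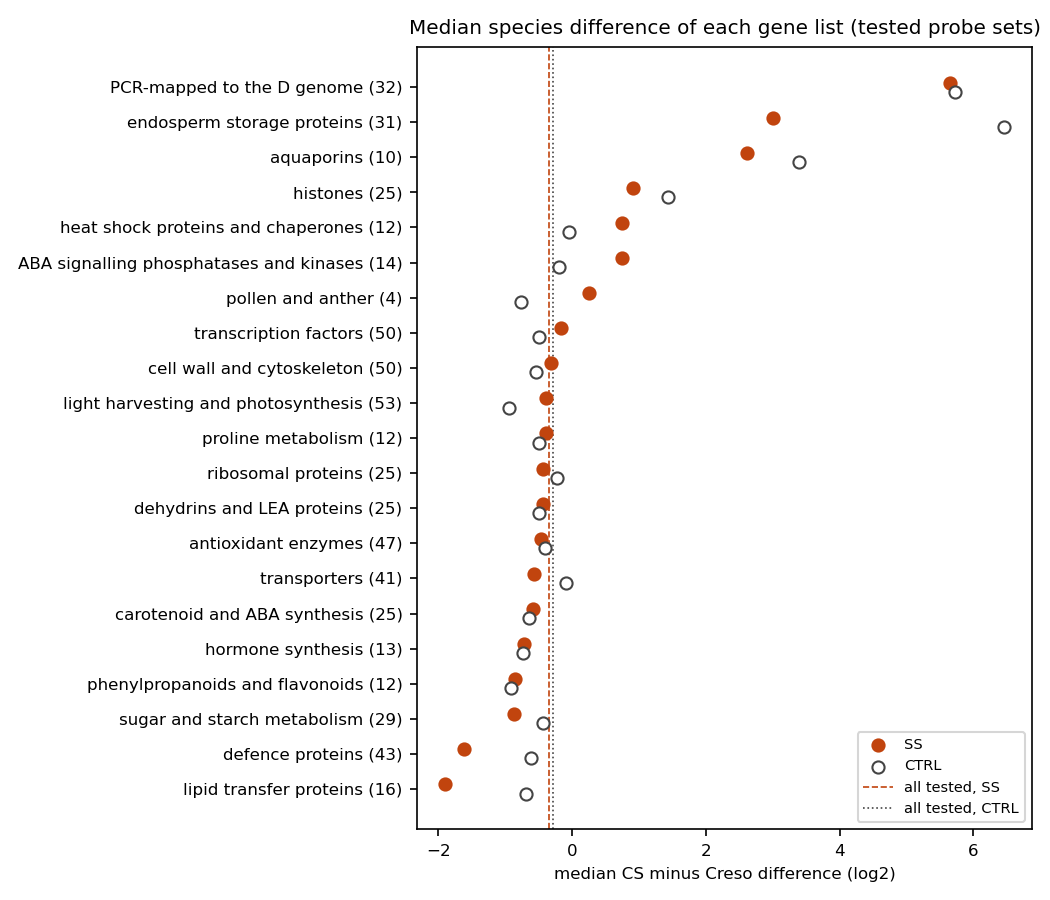
Median species difference (CS minus Creso, log2) over the tested probe sets of each gene list at SS (filled) and at CTRL (open), with the number tested in brackets and dashed or dotted lines at the medians of all tested probe sets (-0.34 and -0.28). Lipid transfer and defence proteins lie furthest to the left at SS, and the PCR-mapped, storage protein and aquaporin lists furthest to the right.

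Grain transcripts gave a species difference that followed single arrays rather than the treatment alone. Of 31 storage protein probe sets, 27 were called higher in CS at CTRL and 6 at SS, with medians of 6.46 and 3.01. The count at SS was 15 without CS SS replicate 2, 1 without replicate 1, 0 without replicate 3, 3 without any of the Creso SS arrays and 0 with replicate 2 alone, where the median was -0.17. The methods' t-test called 0 at SS, against 9 in limma at an unadjusted p under 0.05 and 2-fold. A gamma-gliadin (GAG56D) had 4929, 40.1 and 11152 in CS SS and 9.93, 25.1 and 0.701 in Creso SS, against 18292, 20992 and 25645 in CS CTRL. A gliadin of the gli-2 group had 9078, 229 and 24014 in CS SS and 92.3, 84.1 and 15.5 in Creso SS. The calls of both at SS, with adjusted p = 0.012 and 0.011, were lost with replicate 2 alone, where the differences were 0.77 and 1.47, and without replicate 3. That of GAG56D was also lost without replicate 1.

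Histones were lowest in CS SS on replicate 2, as were the storage proteins, whereas replicates 1 and 3 had opposite orders in the 2 lists. The histones' mean log2 level over 25 probe sets was 9.94, 6.99 and 8.63 on CS SS replicates 1, 2 and 3, against 7.4, 7.91 and 7.35 in Creso SS. Of the 25, 5 were called higher in CS at SS and 0 lower in limma, also at an unadjusted p under 0.05 and 2-fold, and with replicate 2 alone 1 was higher and 1 lower. The count of 5 was 14 without CS SS replicate 2, 2 without CS SS replicate 1 or 3 or Creso SS replicate 3, 3 without Creso SS replicate 2 and 1 by the methods' t-test. The list median was 0.91 with all arrays, 0.01 with the storage protein signal as a covariate and -0.83 with replicate 2 alone. Histone H2A (wcH2A-3) was higher in CS on all 3 arrays, with 670, 387 and 525 against 10.4, 36 and 20.2 in Creso SS, at least 5.24-fold. Of the 9750 calls at SS, 7527 were made again in the same direction with CS SS replicate 2 alone and 8411 with the storage protein signal as a covariate. The part of grain tissue in the remaining differences was not tested. Of 4 tested pollen and anther probe sets, 1 was called higher in CS at SS.

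**Figure D5:**
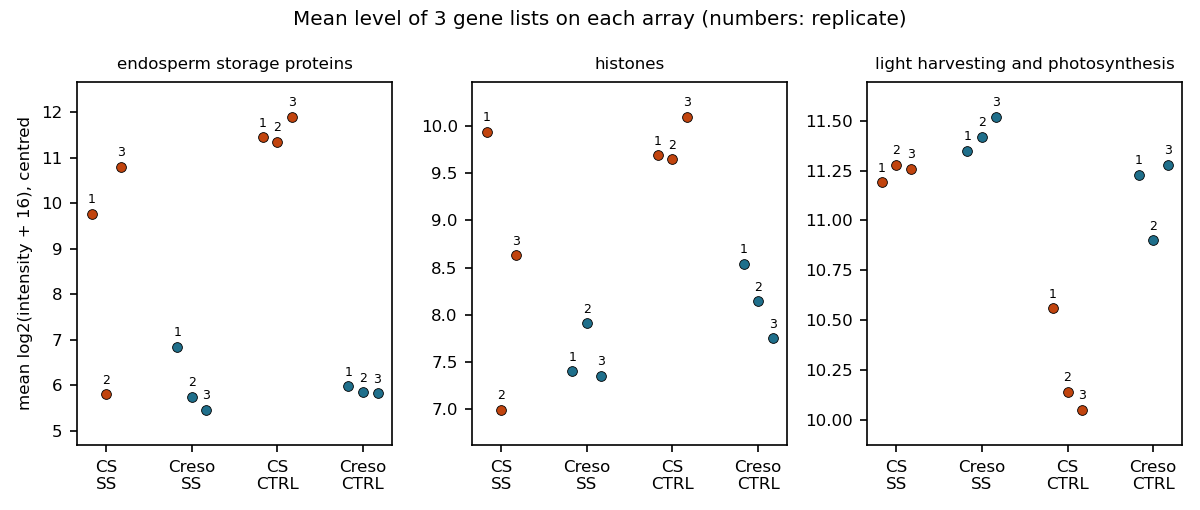
Mean log2(intensity + 16), after centring, of 31 endosperm storage protein, 25 histone and 53 photosynthesis probe sets on each CS SS, Creso SS, CS CTRL and Creso CTRL array, with the replicate number above each point. CS SS replicate 2 lies with the Creso arrays for storage proteins and below them for histones, and it does not stand apart for photosynthesis.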

How the data were processed

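Glume RNA of 9 conditions was hybridised to 27 Affymetrix Wheat Genome Arrays, 3 per condition, with groups taken from genotype and treatment in the labels and replicate numbers from the titles. The authors deposited linear MAS5 intensity values with a trimmed mean of about 500.2 to 500.3 per array, whereas the paper used RMA. No raw files or detection calls were used. The number of arrays limits the precision.

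The log2(intensity + 16) values were centred on a common median, because array medians differed by up to 1.68 times. Of 61179 probe sets other than AFFX controls, 34089 exceeded the array's median on every array of some condition and were tested in limma 3.58.1 under R 4.3.3, with 1 mean per condition over all 27 arrays, a variance trend and Benjamini-Hochberg adjustment. The code was tested on simulated data.

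Members, lists and the rule for named genes were chosen with earlier results of these data known. Named are the 10 widest named differences in each direction that remained and do not overlap, the 10 largest changes per class, up to 4 members of each list and probe sets that the paper names; the text gives some of these. The medians of lists use tested members only. Names come from the platform annotation, with gene synonyms from RefSeq's annotation of IWGSC CS RefSeq v2.1, or from Arabidopsis matches in the first 1420 probe sets of a supplementary table, and 1147 probe sets have a name. From the defence list, 3 probe sets caught inside another word were removed after values were seen, and with them the median at SS is -1.04 with the same counts at SS.

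As alternatives, the analysis was repeated with the methods' t-test, which does not assume equal variances, no filter, a filter at the 75th percentile, no centring, quantile normalization, centring on tested probe sets, offsets of 1 and 64, only the conditions compared, no fold threshold, the replicate block, each array left out, CS SS replicate 2 alone, and the storage protein signal as a covariate. Their use on list and class counts, and that of the methods' t-test, the stricter filter and only the conditions compared on named probe sets, was chosen after seeing the data.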

Additional observations from a re-analysis of the deposited data

Results flagged for a closer look

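For 34 of the probe sets named above, the test of the change found that the species difference itself differed between SS and CTRL. Values are the CS minus Creso difference at SS minus that at CTRL, on the log2 scale.

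Of the differences that remained, those of the major intrinsic protein (1.84), Prx1 (2.35), the DnaJ co-chaperone (3.45), the small heat shock protein (2.11) and the B-box zinc finger protein (1.26) moved towards CS, as did that of CIPK10 (2.34), where CS was the lower species at both treatments. Those of chalcone synthase (-2.05), the basic endochitinase (-3.95), the osmotin-like and chitinase probe sets already lower in CS at CTRL (-2.24 and -2.79) and the lysine and histidine transporter (-2.15) moved towards Creso.

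Of the differences that appeared, the glycosyltransferase matching UGT72B1 (3.67) and the protein phosphatase 2C (2.06) moved towards CS. The protein kinase (-5.69), the other osmotin-like probe set (-5.48), ent-kaurene oxidase (-5.37), the pathogenesis-related protein (-4.49), PR5 (-4.48), the allergen V5/Tpx-1-related protein (-4.31), the other chitinase (-3.51), the beta-fructosidase (-3.01) and the nitrate transporter (-2.39) moved towards Creso.

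Of the differences that closed, the beta-expansin (3.79), the expansin (3.47) and an LHCII probe set (3.54) had positive values, and the glucose-1-phosphate adenylyltransferase (-6.40) and non-symbiotic hemoglobin 1 (-3.61) negative ones. Of those that turned over, the related LHCII probe set (3.69) and the nudix hydrolase (2.70) were positive. The glucosyltransferase (-6.41), the class IV chitinase (-5.57), the dim lipid transfer family probe set (-4.62), the secretory protein (-4.07) and the LTP4 probe set (-3.61) were negative.

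None of the 34 changes was called by the methods' t-test after adjustment, which called no change at all.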

How the results depend on the processing

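No SS difference of the 66 named probe sets, and none of their 34 called changes, reversed direction under any alternative run. Their CTRL differences and uncalled changes were not examined in this way. The balance of directions of the counts turned with the scaling, as given above. By the methods' t-test 42 values of named probe sets lost their call, all 34 changes among them. The SS count of 9750 was 6074 by the methods' t-test, 5843 with the stricter filter and 16685 with no fold threshold, and 9299 to 9873 when single arrays were left out. The CTRL count of 10540 was 4500, 6084 and 16917 under the same 3 settings, and 9792 to 10767 without single arrays. The count called at both, 6451, was 2448, 4068 and 11723, and 6076 to 6632. The change was called for 0 probe sets by the methods' t-test (1962 at an unadjusted p under 0.05 and 2-fold) and for 477 to 907 without single arrays, against 861. With CS SS replicate 2 alone the counts were 8618 at SS, 575 for the change and 5468 at both. With an alternative filter, scaling or offset, or without single arrays, 135 to 308 differences appeared and 165 to 446 closed.

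For the lists, the 9 photosynthesis changes were 0 by the methods' t-test and 5 to 13 without single arrays. The 6 storage protein calls at SS were 0 by that test, 3 without a filter, 2 with an offset of 64, 3 with the storage protein signal as a covariate, 0 with CS SS replicate 2 alone, and 0 to 15 without single arrays.

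With the replicate block the counts were 9731 at SS, 10539 at CTRL, 773 for the change and 6436 at both. Deviations of same-numbered CS and Creso SS arrays correlated at 0.15, -0.1 and -0.08, across probe sets. Those of differently numbered arrays correlated at -0.29 to 0.31. With 3 arrays per group these values cannot decide whether same-numbered samples were paired. The block changed no SS call and no called change of the named probe sets. The files used here hold no detection calls, so that for dim probe sets only bounds are given, and intensity near the array median limits what can be called.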
